A study of Mus musculus with 2 samples.

Results

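The myeloid lineage transcription factors examined here are the products of 8 genes, Spi1, Cebpa, Cebpb, Cebpd, Cebpe, Gfi1, Irf8 and Klf4. They are 8 of 21360 genes that could be named on the array. Each gene was represented by every non-control probe whose transcript identifier belongs to 1 of these genes, which gave 1 probe and 1 spot for each. Expression was measured in LSK cells, marrow cells sorted as negative for a panel of mature lineage antigens and positive for both Sca-1 and c-kit, which hold the hematopoietic stem cells and early progenitors. One Agilent 1-colour array was made for nondiabetic mice and 1 array for mice made diabetic with streptozotocin (STZ), a toxin of the insulin-producing β cells. The labels of both arrays give C57BL/6J female mice, 3 mice and 8.3 ng of total RNA per array. The paper, in contrast, reports male mice for its animal work and names no sex in its array methods. Control mice of the study received citrate buffer in place of STZ, and the age of the mice on the arrays is not given in the sources used here. The study set diabetic against nondiabetic LSK cells to find how diabetes alters gene expression in bone marrow stem cells. With 1 array per condition there is no replicate, so no difference below was tested.

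The path from a stem cell to a granulocyte or a monocyte is set by a small group of DNA-binding proteins. PU.1, the ETS factor encoded by Spi1, is needed for all myeloid and for B lymphoid cells. C/EBPα opens the granulocyte and monocyte path, and the other C/EBP proteins, which bind DNA as pairs through the same kind of leucine zipper, act later or under inflammation. GFI1 and IRF8 then pull progenitors in different directions, GFI1 towards neutrophils and IRF8 towards monocytes and dendritic cells. KLF4 acts in monocytes.

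Of the 8 genes, 6 were well above background on both arrays by the flag of the scanner software, and Cebpd and Cebpe were so on neither. Over all named genes, 63% were well above background on both arrays and 28.8% on neither. None of the 8 spots was saturated or marked as an outlier. Of the 6 measured genes, 5 were lower in diabetic than in nondiabetic LSK cells and 1, Spi1, was higher. Of all 15192 genes with a ratio or a bound, 48.8% were lower and 51.2% higher by any amount. By a limit of 2-fold, 2 of the factors were lower, Irf8 and Cebpa, and 0 were higher, beside 10.1% of all genes lower and 11% higher by that limit. By a limit of 1.5-fold, 4 were lower and 1 was higher, beside 19% of all genes lower and 20.9% higher. The 1 higher was Spi1 at 1.51-fold, which is at the limit itself. The median log2 ratio of the 6 genes was -0.86, and that of all genes was 0.02. These are descriptions of 8 spots on 2 arrays. Since the arrays read RNA from sorted cells in bulk, fewer cells that express a gene and less RNA of it per cell cannot be told apart.

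Intensities below are the processed signals of the scanner software before scaling between arrays, each with the error that the software models for it. That error covers the spot and the background and leaves out differences between mice, sorts and amplifications. Log2 ratios are diabetic over nondiabetic after each array was scaled to its 75th percentile, 168 in nondiabetic and 182 in diabetic LSK cells.

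**Figure D1:**
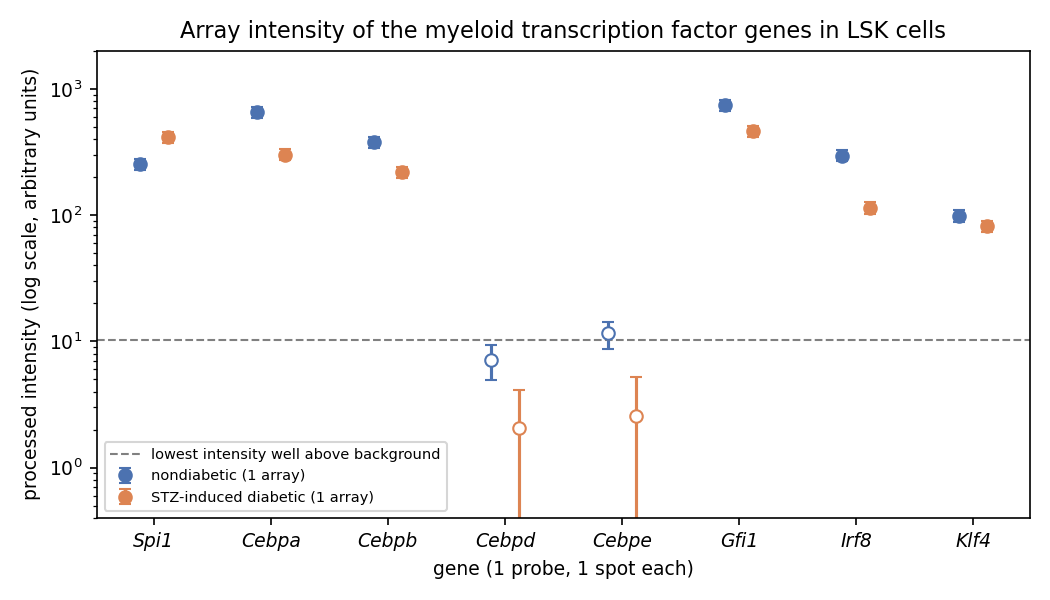
Processed intensity (log axis, arbitrary units) of the single probe of each gene, in nondiabetic (blue) and STZ-induced diabetic (orange) LSK cells, 1 array each. Bars are the error modelled by the scanner software and run off the axis where the error reaches the value, open circles are not well above background, and the dashed line is the lowest intensity well above background. Cebpa, Cebpb, Gfi1, Irf8 and Klf4 sit lower in diabetic LSK cells, Spi1 sits higher, and Cebpd and Cebpe have open circles on both arrays.

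Spi1 encodes PU.1, the factor on which the whole myeloid program depends. Its probe read 253 ± 25.5 on the nondiabetic and 414 ± 41.5 on the diabetic array, for a log2 ratio of 0.59 ± 0.20 (software error). It was the gene of the 6 that stood higher in diabetic LSK cells, at 1.51-fold, which is short of 2-fold.

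Cebpa encodes C/EBPα, without which granulocyte and monocyte progenitors do not form. Its probe read 655 ± 65.5 on the nondiabetic and 301 ± 30.2 on the diabetic array, for a log2 ratio of -1.24 ± 0.20. That is 2.36-fold lower. Probes measured on both arrays were divided by intensity into 3 groups of equal size. Cebpa lies in the brightest group, where 3.33% of 5220 genes were 2-fold or more lower and 4.67% were 2-fold or more higher. Such shares are those of a whole group, which spans a wide range of intensity, and were not counted at the intensity of the gene itself.

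Cebpb encodes C/EBPβ, which takes over granulocyte production during infection and inflammation. Its probe read 380 ± 38.1 on the nondiabetic and 219 ± 22.0 on the diabetic array, for a log2 ratio of -0.91 ± 0.20. It was thus 1.89-fold lower, just short of the 2-fold limit and within the software error of it.

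Cebpd and Cebpe gave no ratio. Cebpd, whose product C/EBPδ is induced in acute inflammation, read 7.15 ± 2.23 on the nondiabetic and 2.07 ± 2.08 on the diabetic array. Cebpe, whose product C/EBPε drives the last steps of granulocyte maturation and the secondary granules, read 11.54 ± 2.81 and 2.58 ± 2.60. The median of the 308 negative control spots was 2.35 on the nondiabetic and 2.32 on the diabetic array. Cebpd and Cebpe were both dimmer on the diabetic array, where they lay at the level of the negative controls, but as neither was well above background on either array the direction is not read as a difference.

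Gfi1 encodes a zinc finger repressor that favors neutrophils and restrains the cycling of stem cells. Its probe read 746 ± 74.6 on the nondiabetic and 464 ± 46.4 on the diabetic array, for a log2 ratio of -0.80 ± 0.20, or 1.74-fold lower.

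Irf8 encodes interferon regulatory factor 8, which directs progenitors to monocytes and dendritic cells. Its probe read 296 ± 29.7 on the nondiabetic and 114 ± 11.6 on the diabetic array, for a log2 ratio of -1.49 ± 0.21. At 2.81-fold lower, this was the lowest ratio among the 6 genes. Irf8 lies in the middle group by intensity, where 11.7% of 4503 genes were 2-fold or more lower and 13.3% were 2-fold or more higher.

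Klf4 encodes a Krüppel-like factor of the monocyte lineage. Its probe read 98.6 ± 10.1 on the nondiabetic and 81.8 ± 8.43 on the diabetic array, for a log2 ratio of -0.39 ± 0.21, or 1.31-fold lower. It moved least of the 6.

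**Figure D2:**
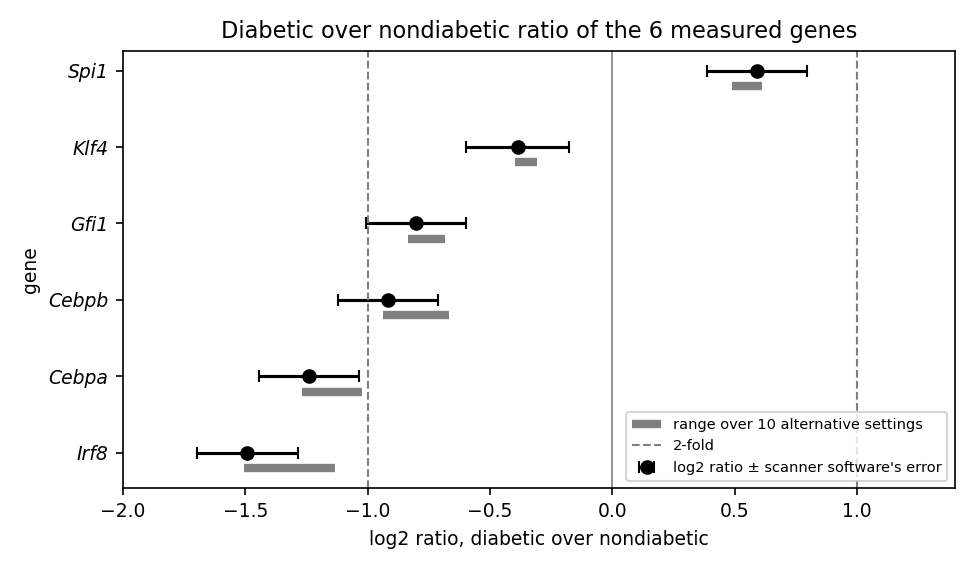
Log2 ratio of diabetic over nondiabetic LSK cells (x axis) for the 6 genes well above background on both arrays (y axis). Points are the values with the error modelled by the scanner software, grey bars are the range over 10 alternative settings, and dashed lines mark 2-fold. Irf8 and Cebpa lie past the left line, Cebpb and Gfi1 lie just short of it, and Spi1 lies right of 0.

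The only repeat that the arrays hold is between spots of probes printed several times. Over 70 such probes in the brightest group, the spots of a probe had log2 ratios with a median SD of 0.07 and a highest SD of 0.13. In the middle group, over 79 probes, the median was 0.13 and the highest value 0.25. Spi1, Cebpa, Cebpb and Gfi1 belong to the brightest group and Irf8 and Klf4 to the middle group, and all 6 log2 ratios were larger in size than the highest spot SD of their group. Klf4 came nearest to it, at -0.39 against 0.25. Each factor has 1 spot, so its own spot error was not measured, and the spot SDs say nothing of the spread between mice.

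A ratio of 1 gene set against that of another gene on the same arrays does not depend on a scaling by 1 constant per array. It can still change with the background correction and with loess or quantile normalization. With normexp background correction, 1 of the alternatives below, the log2 ratios were 0.49 for Spi1, -1.02 for Cebpa, -0.69 for Gfi1 and -1.13 for Irf8. The differences that follow are those of the main setting. The log2 ratio of Spi1 lay 1.83 ± 0.29 above that of Cebpa and 2.08 ± 0.29 above that of Irf8. It also lay 1.39 ± 0.29 above that of Gfi1. Between the genes of the 2 factors that pull in different directions, the log2 ratio of Gfi1 was 0.69 ± 0.29 above that of Irf8. The log2 ratio of Cebpa was 0.32 ± 0.29 below that of Cebpb, a difference of about the size of its error.

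**Figure D3:**
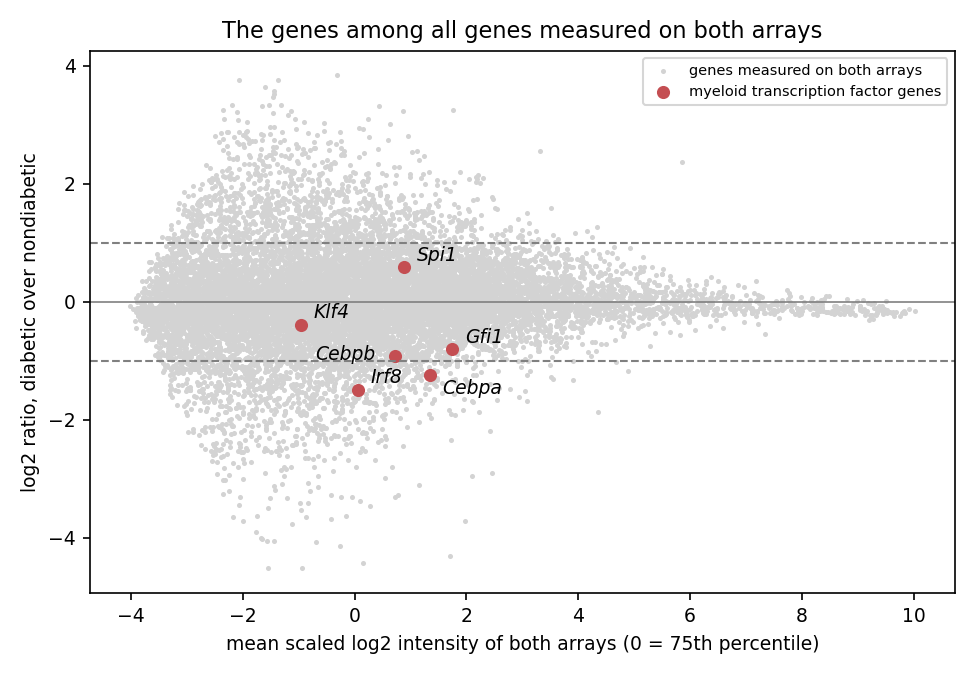
Log2 ratio of diabetic over nondiabetic LSK cells against the mean scaled log2 intensity of both arrays, where 0 is the 75th percentile, for each gene measured on both arrays by its brightest probe (grey) and for the 6 measured myeloid transcription factor genes (red). Dashed lines mark 2-fold. On the x axis Irf8 lies at 0.07, Cebpb at 0.72, Cebpa at 1.34 and Gfi1 at 1.75. Cebpa, Gfi1 and Cebpb belong to the brightest group by intensity and Irf8 to the middle group. The share of genes 2-fold lower was counted over whole groups and not at the intensity of each gene.

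The windows of 250 bases before the gene start are shown for Cebpa and Irf8, because these 2 genes passed 2-fold. RefSeq (GRCm38.p6) gave such windows for 5 of the 8 genes, Cebpa, Cebpb, Gfi1, Irf8 and Klf4. Capitals mark matches on either strand to the C/EBP core (TTGCG), an ETS site (GAGGAA), an interferon response site (GAAA, any 2 bases, GAAA), a GAS site, the element that STAT proteins bind (TTCNNNGAA), or a TATA box (TATAAA). The Cebpa window is chr7:35119043-35119292 on the + strand and the Irf8 window is chr8:120736108-120736357 on the + strand, the first of its 2 windows.
Cebpa: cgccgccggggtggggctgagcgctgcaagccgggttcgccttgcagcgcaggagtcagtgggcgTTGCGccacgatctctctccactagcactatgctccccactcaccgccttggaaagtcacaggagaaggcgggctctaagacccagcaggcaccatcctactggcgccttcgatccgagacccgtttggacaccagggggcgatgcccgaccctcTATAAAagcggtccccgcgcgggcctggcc
Irf8: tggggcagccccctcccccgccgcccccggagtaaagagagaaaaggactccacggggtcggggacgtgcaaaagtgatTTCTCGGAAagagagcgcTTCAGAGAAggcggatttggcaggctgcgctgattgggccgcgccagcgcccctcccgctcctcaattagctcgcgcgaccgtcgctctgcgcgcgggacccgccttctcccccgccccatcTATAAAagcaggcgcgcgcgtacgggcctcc
Cebpa holds a TTGCG at positions -185 to -181 and a TATA box at -30 to -25, counted from the gene start. Irf8 holds a GAS site, TTCTCGGAA, at -171 to -163, a second one, TTCAGAGAA, at -153 to -145, and a TATA box at -31 to -26. Of 32851 windows of the same length, 14.5% hold the C/EBP core, 7.02% the GAS site and 12.4% the TATA box. The windows of Cebpb, Gfi1 and Klf4 hold none of the 5 motifs. A match is a run of letters, and binding was not measured here.

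Lists of genes around these factors were then read in the same way, by the brightest probe of each gene, with a bound counted at its limit. The counts of each list stand beside the shares over all genes with a ratio or a bound. Of these, 11% were at least 2-fold higher, 10.1% were at least 2-fold lower and 48.8% were lower by any amount. The first list held 15 relatives of the factors by family, of which 11 gave a ratio, 3 gave a bound since 1 array alone passed the background flag, and 1, Klf5, gave neither. By the 2-fold limit 3 were higher and 4 lower on the diabetic array, with a median log2 ratio of 0.24. Among the C/EBP relatives, Cebpg, which encodes a short C/EBP that pairs with the others, read 177 and then 59.1 on the diabetic array, a log2 ratio of -1.70. Ddit3 encodes CHOP, a stress-induced C/EBP that pairs with the others and keeps them from their usual sites. It went from 203 to 31.4, a log2 ratio of -2.81. Cebpz, which bears the family name without the zipper, went from 650 to 623, a log2 ratio of -0.18.

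Among relatives of IRF8 and PU.1, Irf4 and Spib, both known from B cells and dendritic cells, were well above background in nondiabetic LSK cells alone. Irf4 had 65.5 there and was lower by at least 7.06-fold on the diabetic array, and Spib had 31.2 and was lower by at least 3.36-fold. Irf5, a factor of inflammatory macrophages, went from 55.3 to 219, a log2 ratio of 1.87. Spic, a PU.1 relative of iron-recycling macrophages, had 29.6 in diabetic LSK cells and was at least 2.67-fold higher there. Irf1, the brightest of the list, had log2 ratios of 0.65 and 0.78 on its 2 probes. Klf3 had a log2 ratio of 1.55 on its brightest probe and -0.76 on the other. The IRF and PU.1 relatives therefore lay on both sides of 0, and Gfi1b, the close relative of Gfi1 in erythroid cells and platelets, had a log2 ratio of 0.09.

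Of 18 genes for transcription factors that work with or against the myeloid factors, 16 were measured, 1 was higher and 0 lower by the 2-fold limit, with a median log2 ratio of 0.23. The gene past 2-fold was Fli1, an ETS factor of stem cells and megakaryocytes, which went from 220 to 549, a log2 ratio of 1.20. Egr1 and Myb, the brightest of the list, had log2 ratios of 0.25 and 0.72. Gata1, the erythroid factor that opposes PU.1, had one of -0.59, and Gata2 one of 0.27. The count of 0 lower holds for the brightest probes. Nab2 had a log2 ratio of 0.39 on its brightest probe and -1.76 on the other, and Zeb2 had 0.69 and -1.47. Of 7 genes for corepressors that GFI1, PU.1 and related factors use, 2 were at least 2-fold higher and 0 lower, with a median of 0.44. These were Zmynd8, from 497 to 1847, and Rcor1, from 112 to 358. The other probes of Zmynd8 gave log2 ratios of -0.13 and 0.10 against 1.78 for the brightest, and the other probe of Rcor1 gave -0.11 against 1.56, so for both genes the probes disagreed. Kdm1a, the demethylase that works with GFI1, had a log2 ratio of 0.44 on its 1 probe.

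Genes of neutrophils, monocytes and dendritic cells were read next, and whether the factors act on them in these cells was not tested. Of 15 granule and neutrophil genes, 11 gave a ratio, 2 a bound and 2 neither. By the 2-fold limit 1 was higher and 3 lower on the diabetic array, beside 11% and 10.1% of all genes. The median log2 ratio was -0.35. Mpo, the peroxidase of the first granules, went from 2731 to 1851, a log2 ratio of -0.68, and Ctsg, a granule protease, from 1036 to 761, a log2 ratio of -0.56. Elane, the neutrophil elastase and a known target of C/EBP proteins and PU.1, went the other way, from 192 to 295, a log2 ratio of 0.50. Ms4a3, a gene of granulocyte-monocyte progenitors, went from 61.2 to 25.0, a log2 ratio of -1.41. S100a8 had a log2 ratio of -1.48, whereas S100a9, whose product pairs with that of S100a8, had one of 0.10. Mmp8, a neutrophil collagenase, passed the background flag on the nondiabetic array alone, at 157, and was lower by at least 17.0-fold on the diabetic array. Chil3 went from 22.7 to 120, a log2 ratio of 2.29. Of the genes of late granules, Camp went from 111 to 178, a log2 ratio of 0.56, and Lcn2 from 223 to 272, a log2 ratio of 0.17. Ngp passed the background flag on the nondiabetic array alone, and Ltf and Mmp9 on neither.

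Of 15 monocyte and dendritic cell genes, 14 had a named probe and were measured on both arrays, and 1, Ly6c2, was not analysed here. By the 2-fold limit 1 was higher and 2 lower on the diabetic array, beside 11% and 10.1% of all genes. By any amount 9 were lower, beside 48.8% of all genes, and the median log2 ratio was -0.40. F13a1, the factor XIII subunit of monocytes, went from 487 to 171, a log2 ratio of -1.62, and its other probe, dim on the diabetic array, gave a bound of -1.83 on the log2 scale. Ly86, a partner of a Toll-like receptor relative, went from 56.4 to 28.7, a log2 ratio of -1.09. Cx3cr1, a chemokine receptor of monocytes, went from 30.3 to 83.4, a log2 ratio of 1.34, and a second probe gave 1.20. Itgam and Csf1r were the brightest of the list, with log2 ratios of -0.10 and -0.34. Their other probes gave -1.30 and -1.12 for Itgam and -1.17 for Csf1r, which has 1 further probe well above background on neither array. The brightest Itgam probe read 34686 and then 35189 on the diabetic array, far above its other probes, which went from 111 to 49.2 and from 284 to 142. The count of 2 lower holds for the brightest probes.

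Of 8 genes for receptors of myeloid growth factors, all measured, 1 was at least 2-fold lower and 0 were higher, with a median of -0.01. Il6st, the shared signalling chain of the interleukin 6 family, went from 757 to 199, a log2 ratio of -2.04. Il6ra, which binds interleukin 6 itself, went from 412 to 224, or 1.99-fold lower. Csf3r and Kit, the brightest of the list and the receptors for G-CSF and stem cell factor, had log2 ratios of 0.10 and -0.09, and Csf2ra had one of -0.39.

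**Figure D4:**
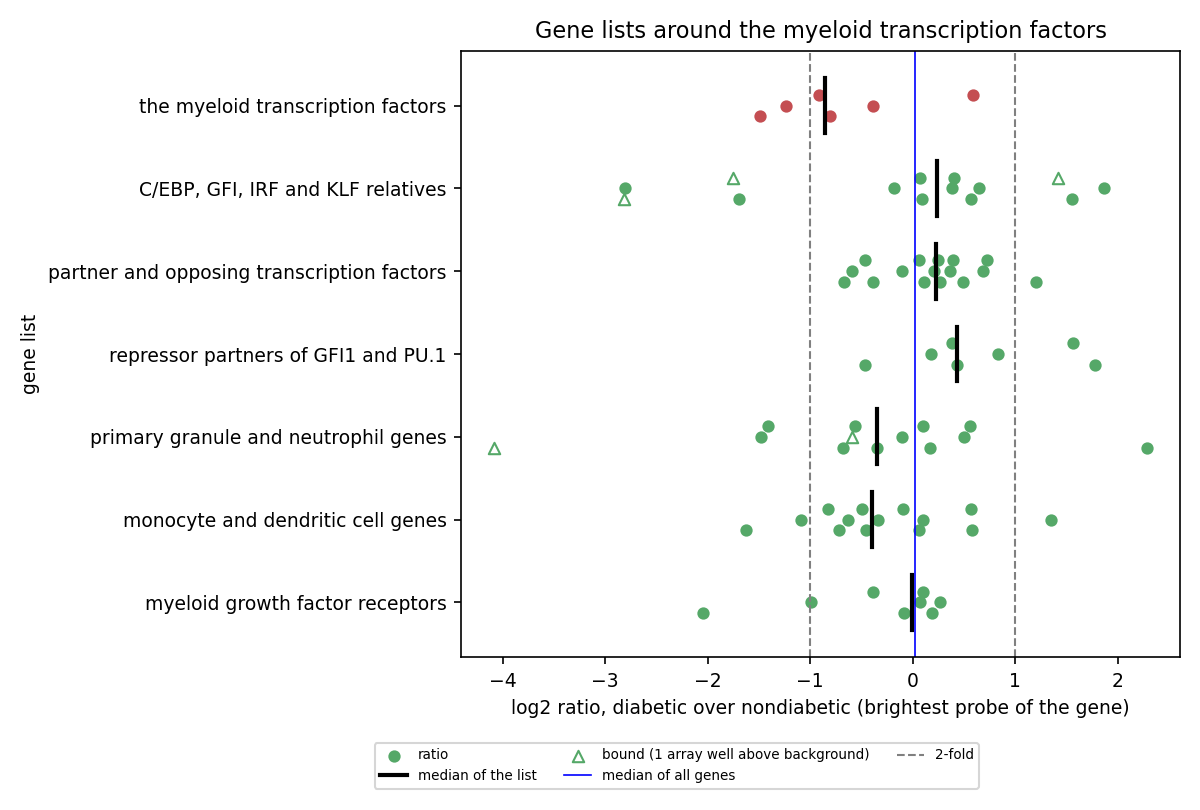
Log2 ratio of diabetic over nondiabetic LSK cells (x axis) by the brightest probe of each gene, for the 6 measured myeloid transcription factor genes (red) and 6 lists of genes around them (green, y axis). Circles are ratios, triangles are bounds, black lines are medians of a list, the blue line is the median of all genes at 0.02, and dashed lines mark 2-fold. The median of the myeloid factors, -0.86, lies left of those of the other lists, which run from -0.40 to 0.44.

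The labelled cell type was checked against marker genes. Of 10 genes of the stem and progenitor gate, 9 were well above background on both arrays, among them Kit and Ly6a, the gene for Sca-1, with log2 ratios of -0.09 and 0.44. Of 8 mature neutrophil markers, 5 were measured on both arrays and Ltf was at background, and the intensities of the list summed to 1168 on the nondiabetic and 1184 on the diabetic array before scaling. Of the 7 with a ratio or bound, 4 were lower after scaling, Mmp8 and S100a8 past 2-fold, and 3 were higher. Of 8 monocyte and macrophage markers, 7 were measured on both, with a summed intensity of 5619 and 4948, of which Csf1r made up 5003 and 4284. The sum thus rests largely on 1 of the 3 Csf1r probes. Of the others, 1 went from 196 to 94.2 and 1 was well above background on neither array. Of the 8 markers, 6 were lower by any amount on the diabetic array, beside 48.8% of all genes, and 0 were lower by the 2-fold limit. Cx3cr1 and Adgre1 were higher, Cx3cr1 past 2-fold. The part of such cells in the Irf8 value was not tested. Over all genes with at least 2 probes measured on both arrays, the probes of 35.4% differed by more than 2-fold in ratio and those of 48.9% had opposite signs. Each of the 8 myeloid factors has 1 probe on the array, so its ratio has no second probe to be set against.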

How the data were processed

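Processed intensities were read from the Agilent Feature Extraction 11.5.1.1 output that the authors deposited for each of 2 arrays, in which the software had corrected the background within the array and given a modelled error per spot. A deposited table of processed intensities equals them times 1 constant per array, with a log2 factor of 3.48 for nondiabetic and 3.35 for diabetic LSK cells, and its normalization is not given in the sources used here. RNA had been amplified before labelling with Cy3.

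Intensities were taken to log2, scaled per array to the 75th percentile of its 59305 non-control spots, and averaged over the spots of a probe, without spots marked as outliers on either array. Of these spots, 37173 (62.7%) were well above background in nondiabetic and 37910 (63.9%) in diabetic LSK cells. Where 1 array was dim, the dim side of the ratio was set to the array's lowest intensity above background by the flag, or to the probe's own intensity if higher, and no bound is given under 1-fold. Probes were named by transcript identifier through a RefSeq table of GRCm38.p6, which named 53.7% of spots. A gene is given by its probe with the highest mean signal.

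No test was made, since each condition has 1 array, and that number limits the precision. All 8 factors are reported, and from each list the genes past 2-fold and otherwise the 2 brightest. Further list genes were named after their values were seen. The factors and lists were chosen with earlier results of these data known. The alternatives were normexp background correction (offset 50, on median spot signals, as mean signals are not used here), loess, quantile normalization, median centring, no filter on dim probes, a filter that needs both arrays above background, averaging a gene's probes, marked spots kept, the authors' table and a floor. On simulated data for this comparison with 55661 probes, 100% of 200 probes with a log2 change of 2 passed 2-fold, as did 0 of 34618 unchanged probes. That run checks the calculation only, since the planted change lies far past the 2-fold limit. Without replicates, the spread between mice, sorts and amplifications is not known and could not be simulated. The run therefore gives no rate of false or missed calls for the real arrays. Python 3.11.15, pandas 2.3.3, numpy 2.4.6, R 4.3.3 and limma 3.58.1 were used.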

Additional observations from a re-analysis of the deposited data

How the results depend on the processing

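Over the 10 alternatives, the log2 ratio stayed between -1.27 and -1.02 for Cebpa and between -1.51 and -1.13 for Irf8, past 2-fold in each. It stayed between 0.49 and 0.61 for Spi1, -0.94 and -0.67 for Cebpb, -0.84 and -0.69 for Gfi1 and -0.40 and -0.31 for Klf4, short of 2-fold in each. The filters, the floor, marked spots and averaging of probes could not move these ratios, since each gene has 1 unmarked spot above background. Median centring and the authors' table move all genes by 1 constant. Only normexp, loess and quantile normalization could change 1 gene relative to another. Normexp, which adds an offset to every intensity, gave the value nearest 0 for each of the 6. The number of factors at least 2-fold lower was 2, and 4 with no filter on dim probes, which counts Cebpd at -1.91 and Cebpe at -2.28. With the floor, where Cebpd is set to the floor on both arrays, these were -0.14 and -0.32 and the median of all genes was -0.14. With a limit of 1.5-fold, chosen after seeing the data, 1 factor was higher and 4 were lower, as were 3176 and 2887 of all genes, in place of 1667 and 1538 at 2-fold. The 1 higher, Spi1, fell short of 1.5-fold with normexp, quantile normalization, loess and the authors' table. Normexp gave 597 and 497 of all genes past 2-fold. In the 6 lists together, 8 genes were higher and 10 lower by 2-fold, beside 11% and 10.1% of all genes. The mean over a gene's probes gave 5 higher, and normexp gave 5 lower. No paired analysis was possible because a single array stands for each condition, and for the same reason no replicate could be left out. Signal over background limits Cebpd and Cebpe, which have no ratio.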

Other observations

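Markers of other blood lineages and of the marrow lining, which belong to no comparison above, were read on the same arrays. Over all genes with a ratio or a bound, 51.2% were higher and 48.8% lower by any amount. Among erythroid genes, Slc4a1, the anion exchanger of red cells, had a log2 ratio of 1.98 and Hba-a1, an α-globin gene, one of 1.21, while Klf1, Epor and Car1 lay between -0.30 and -0.20. Of 6 megakaryocyte and platelet genes, 4 were higher, 1 was lower and Ppbp was well above background on neither array. Gp9 alone passed 2-fold, with a log2 ratio of 1.52 from a dim 14.4 on the nondiabetic array. Pf4 had one of 0.75, Gp1ba 0.35, Itga2b 0.31 and Vwf -0.12. Of 7 B cell genes, 4 were higher and 1 was lower. Cd79a had a log2 ratio of 1.51, its partner Cd79b one of -0.39 and Vpreb1, part of the surrogate light chain, one of 0.48, while Ebf1 and Ms4a1 were well above background on neither array. Of 8 T and NK cell genes, Cd3d and Cd3g were well above background in nondiabetic LSK cells alone, at intensities of 25.4 and 25.4, while Cd3e had a log2 ratio of -0.38 and Lck one of -0.06. Of 7 genes of stroma and endothelium, Pecam1 went from 162 to 936, a log2 ratio of 2.41. The other 3 with a value were lower, Pdgfrb at -0.30, Kdr at -0.11 and Cxcl12 at a bound of -0.45, and Col1a1 and Cdh5 were well above background on neither array. In the stem and progenitor gate, Mecom had a log2 ratio of -1.20 on its brightest probe and -0.16 on the other, and Slamf1 was higher by at least 2.59-fold on the diabetic array.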
